A study of Sus scrofa with 11 samples.

Results

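DLD, DLAT, IDH3A, IDH2 and PCCB encode enzymes of the mitochondrial matrix that feed carbon into, or carry it around, the tricarboxylic acid (TCA) cycle. These 5 genes, of 12217 named on the array, were taken as the 8 probe sets, of 27558, whose single gene symbol in the platform annotation was one of these names. IDH2, DLAT and PCCB had 2 probe sets each, and DLD and IDH3A had 1. All 8 passed the filter on dim signal, which used the mean over all arrays and kept 20668 probe sets. Values are log2 signal per probe set as normalized by the authors, so a difference of 1 is a doubling. Differences are given with their limma standard error (SE), 95% interval and an adjusted p after Benjamini-Hochberg adjustment over the 20668 probe sets, with a threshold of 0.05.

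The tissue was the ischemic zone of the left ventricle of male Yorkshire swine, in which an ameroid constrictor around the left circumflex coronary artery slowly closes the vessel. HFD+EV (3 arrays) came from swine on a high fat diet whose heart muscle was injected with extracellular vesicles (EV), and HFD (2 arrays) from swine on the same diet injected with vehicle. ND+EV (3 arrays) and ND (3 arrays) are the same injections under a normal diet. Diets ran for 12 weeks, tissue was taken 5 weeks after injection, and every group carried the constrictor, so no group is an uninjured heart. The cells that released the vesicles are not described in the labels. The titles call the arrays of a group biological replicates without naming an animal, so p-values measure the spread between these arrays.

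As background, the pyruvate dehydrogenase complex turns pyruvate into acetyl-CoA at the entry to the TCA cycle. DLAT is its acetyltransferase core, which carries lipoyl groups, and DLD is the flavoprotein that reoxidises them, a part shared with the oxoglutarate and branched-chain keto acid dehydrogenase complexes. IDH3A is the catalytic subunit of the NAD-dependent isocitrate dehydrogenase of the cycle, and IDH2 is the separate NADP-dependent enzyme, a source of NADPH in mitochondria. PCCB is the beta subunit of propionyl-CoA carboxylase, through which carbon of isoleucine, valine and odd-chain fatty acids reaches succinyl-CoA. Heart muscle obtains most of its ATP from such mitochondrial oxidation.

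Array medians lay between 4.36 and 4.48. The SD of log2 signal over an array was 1.507 to 1.596 in HFD+EV, 1.593 and 1.624 in HFD, 1.499 to 1.544 in ND+EV and 1.447 to 1.514 in ND. ND replicates 1 and 3 had the lowest mean correlation with the other arrays (0.946 and 0.952, against 0.965 to 0.972 for the other 9). Ventricular muscle markers fitted the labelled tissue. The mean log2 signal over 6 of 9 listed cardiomyocyte genes was 11.79 to 11.95 in HFD+EV, 11.86 to 11.96 in HFD, 11.80 to 11.83 in ND+EV and 11.67 to 11.81 in ND. Over 5 of 6 fibroblast genes it was 8.94 to 9.67 in HFD+EV, 9.20 to 9.94 in HFD, 9.06 to 9.15 in ND+EV and 8.20 to 9.36 in ND. Over 4 atrial genes it was 5.44 to 5.59 in HFD+EV, 6.04 to 7.23 in HFD, 5.62 to 5.87 in ND+EV and 4.99 to 6.05 in ND. HFD thus lay above ND in the array SD, in the mean of the cardiomyocyte genes and nearly so in that of the atrial genes. The fibroblast mean was also higher, at 9.57 in HFD against 8.78 in ND, with overlapping arrays. All 5 fibroblast genes measured were 0.42 to 1.16 higher in HFD than in ND. Single genes differed. ACTC1 (-0.14) and RYR2 (-0.097) were lower in HFD than in ND, and the other cardiomyocyte genes measured were 0.24 to 0.41 higher. The atrial gene MYL4 was level (0.0005), and the other atrial genes were 0.98 to 1.78 higher. The atrial mean also combined opposite changes in the EV groups. HFD+EV differed from ND+EV by 1.03 for NPPA and -2.15 for MYL7. ND+EV differed from ND by -0.77 for NPPA and 1.64 for MYL7. The part of these shifts in the differences below was not tested. In bulk tissue a lower share of muscle cells and less RNA per muscle cell cannot be told apart.

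DLD separated the diets completely. Its log2 signal was 5.75, 5.91 and 5.79 in HFD+EV, and 5.68 and 6.19 in HFD. It was 5.03, 5.46 and 4.93 in ND+EV, and 4.82, 5.28 and 4.41 in ND. All 5 high fat arrays thus lay above all 6 normal diet arrays, as did 1.61% of the probe sets tested, and DLD was the only one of the 8 to do so. HFD averaged 5.93 ± 0.36 (SD, n = 2) and ND 4.84 ± 0.44 (n = 3), a log2 difference of 1.10 ± 0.25 (SE; 2.14-fold; limma adjusted p = 0.0632). HFD+EV averaged 5.82 ± 0.082 and ND+EV 5.14 ± 0.28 (n = 3 each), a difference of 0.67 ± 0.23 (limma adjusted p = 0.596).

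Averaged over both injections, DLD was the only one of the 8 probe sets to pass. It rose by 0.88 ± 0.17 on the log2 scale under the high fat diet, a fold of 1.85 with a 95% interval of 0.51 to 1.26 in log2 units and a limma adjusted p of 0.0480. This call sat at the threshold. It ended without filter (0.0561), with a variance trend (0.0606), under quantile normalization (0.0689) or cyclic loess (0.0570). It also ended when any of 9 single arrays was left out: HFD+EV replicates 2 (0.120) and 3 (0.128), HFD replicates 1 (0.0823) and 2 (0.182), ND+EV replicates 1 (0.116), 2 (0.0525) and 3 (0.116), and ND replicates 1 (0.0771) and 3 (0.0577). The size moved less, from 0.76 without HFD replicate 2 to 1.01 without HFD replicate 1, and was 0.66 without both ND replicates 1 and 3.

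DLAT gave opposite directions on its 2 probe sets. On probe set 15325823, the brighter one, log2 signal was 7.42, 8.11 and 8.19 in HFD+EV, 8.30 and 8.22 in HFD, 7.58, 7.52 and 7.59 in ND+EV and 7.12, 7.51 and 6.91 in ND. The HFD arrays were above every other array, and HFD+EV replicate 1 was below all 3 ND+EV arrays. HFD averaged 8.26 ± 0.054 (SD, n = 2) and ND 7.18 ± 0.31 (n = 3), a log2 difference of 1.08 ± 0.23 (SE, 2.12-fold, limma adjusted p = 0.0600). HFD+EV differed from ND+EV by 0.34 ± 0.21 (adjusted p = 0.743). This was 0.58 without HFD+EV replicate 1 and 0.20 without HFD+EV replicate 3. The mean diet difference was 0.71 ± 0.16 (adjusted p = 0.0532). It was 0.83 without HFD+EV replicate 1 (adjusted p = 0.0164) and 0.64 without HFD+EV replicate 3. It did not pass without HFD+EV replicate 2 or 3. With a stricter filter on dim signal, array weights or a block for replicate number, both this DLAT probe set and DLD passed. Both also passed without HFD+EV replicate 1 and without ND replicate 2.

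On the other DLAT probe set, 15330253, log2 signal was 4.39, 5.17 and 5.46 in HFD+EV, 5.05 and 4.89 in HFD, 4.99, 4.76 and 5.14 in ND+EV and 5.42, 5.23 and 5.76 in ND. Here both HFD arrays were below all 3 ND arrays. The difference of HFD from ND was -0.50 ± 0.28 (SE; 95% interval -1.12 to 0.11; limma adjusted p = 0.291), and that of HFD+EV from ND+EV 0.046 ± 0.25 (adjusted p = 0.972), with HFD+EV replicate 1 the lowest of all 11 arrays. The direction for DLAT thus rests on the choice of probe set. The labels and files do not say which transcript parts each covers.

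IDH3A was higher under the high fat diet in vehicle hearts, short of the threshold. Its log2 signal was 6.10, 6.80 and 6.70 in HFD+EV, 6.70 and 6.69 in HFD, 6.36 on each of the 3 ND+EV arrays and 5.73, 6.197 and 6.02 in ND. The 3 ND+EV values were identical to every deposited digit, so the SD of that group was 0, and only the limma fit over all groups gives it an error. Both HFD arrays were above all 3 ND arrays, and HFD+EV replicate 1 was again below the ND+EV arrays. HFD averaged 6.70 ± 0.0036 (SD, n = 2) and ND 5.98 ± 0.24 (n = 3), a log2 difference of 0.71 ± 0.20 (SE; 1.64-fold; limma adjusted p = 0.0845). HFD+EV differed from ND+EV by 0.17 ± 0.18 (adjusted p = 0.850). This was 0.39 without HFD+EV replicate 1 and 0.041 without HFD+EV replicate 2.

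IDH2 varied mainly among the ND arrays. On probe set 15316893 log2 signal was 9.75, 9.88 and 9.92 in HFD+EV, 9.92 and 9.94 in HFD, 9.80, 9.71 and 9.90 in ND+EV and 9.001, 9.48 and 9.80 in ND. Probe set 15310899 gave 9.48, 9.65 and 9.73 in HFD+EV, 9.72 and 9.63 in HFD, 9.55, 9.47 and 9.74 in ND+EV and 8.81, 9.27 and 9.70 in ND. On both, ND replicate 1 was lowest and ND replicate 2 next, while ND replicate 3 was within the range of the other groups. The SD was at most 0.14 in HFD+EV, HFD and ND+EV, against 0.40 and 0.44 in ND.

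For IDH2 the HFD to ND difference was 0.50 ± 0.20 (SE; limma adjusted p = 0.158) and 0.42 ± 0.22 (adjusted p = 0.271) on the 2 probe sets. It depended on scaling: 0.20 and 0.12 under quantile normalization, and 0.044 and -0.040 under cyclic loess, where the second turned direction. Without ND replicate 1 it was 0.29 and 0.19, and without ND replicate 3 it was 0.69 and 0.63. In HFD+EV against ND+EV the differences were 0.047 ± 0.18 (95% interval -0.34 to 0.44) and 0.031 ± 0.20 (-0.40 to 0.46). The second turned to -0.025 without HFD+EV replicate 3 and -0.029 without ND+EV replicate 2.

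PCCB was higher in HFD than in ND on both probe sets, which did not pass. On probe set 15216920 log2 signal was 5.70, 5.91 and 6.27 in HFD+EV, 6.41 and 5.98 in HFD, 5.996, 6.05 and 5.59 in ND+EV and 5.31, 5.10 and 5.55 in ND. Every ND array was below every array of the other 3 groups. On probe set 15221241 log2 signal was 5.49, 6.15 and 6.15 in HFD+EV, 6.26 and 5.73 in HFD, 5.71, 5.22 and 5.51 in ND+EV and 5.08, 5.54 and 4.99 in ND. There the HFD arrays stood clear of the ND arrays, and the ND and ND+EV arrays overlapped. HFD differed from ND by 0.87 ± 0.22 (SE; 1.83-fold; limma adjusted p = 0.0715) and by 0.79 ± 0.26 (1.73-fold; adjusted p = 0.109). HFD+EV differed from ND+EV by 0.084 ± 0.20 (adjusted p = 0.935) and by 0.45 ± 0.23 (adjusted p = 0.704). The first of these turned to -0.069 without HFD+EV replicate 3 and -0.058 without ND+EV replicate 3.

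**Figure D1:**
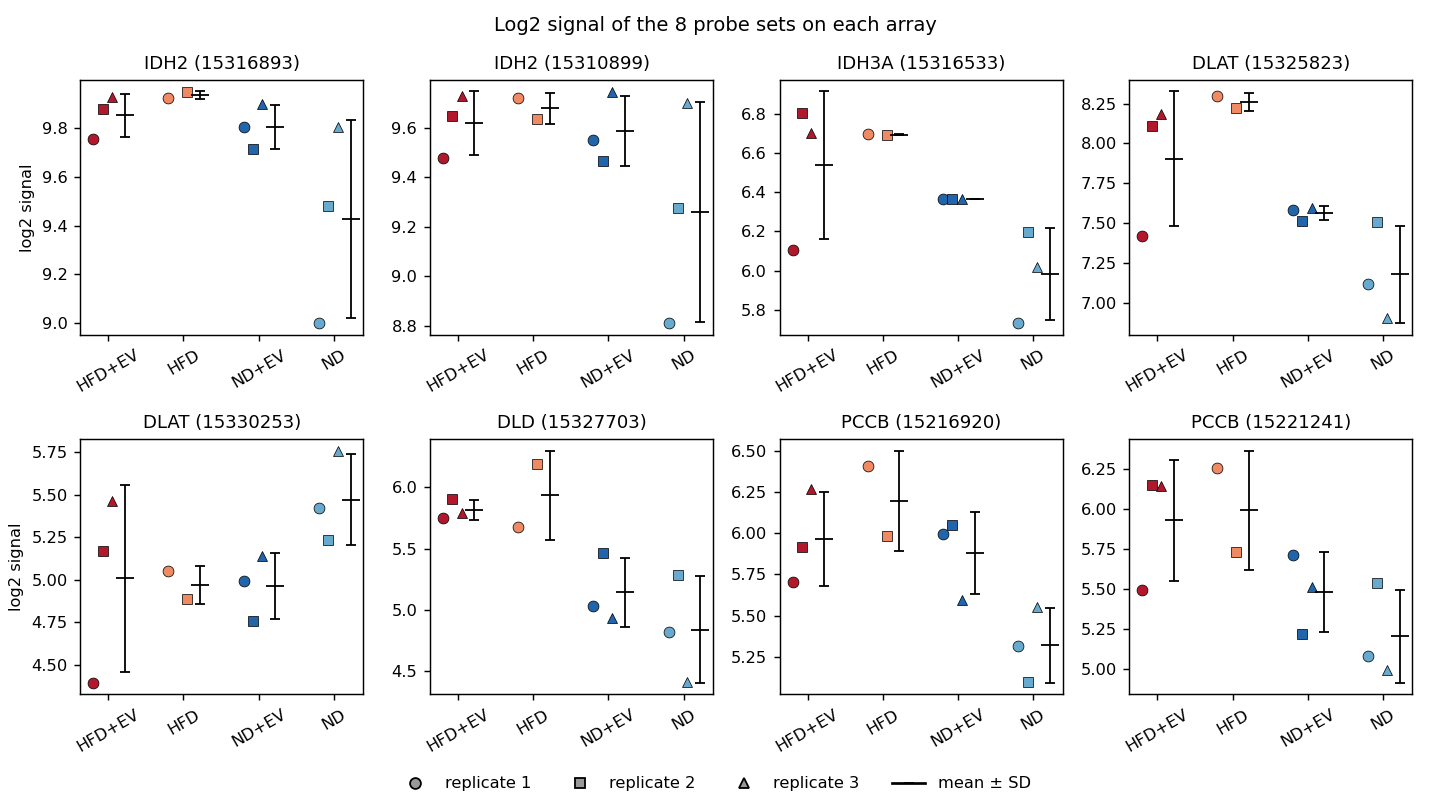
Log2 signal (y axis, own scale in each panel) of the 8 probe sets on each array, by group (x axis). Coloured points are arrays, with a shape for each replicate number, and black marks are the group mean with its SD. DLD is higher on all 5 high fat arrays than on all 6 normal diet arrays, the 3 ND+EV points of IDH3A coincide at 6.36, and the 2 DLAT panels order HFD and ND in opposite ways.

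Across the 8 probe sets, the median difference was larger in size for HFD against ND than in the other 3 pairwise comparisons. Of the 8, 7 were higher in HFD than in ND and 1, the second DLAT probe set, was lower, with a median log2 difference of 0.75 against -0.022 over all probe sets tested. With limma 0 of the 8 passed, against 0.735% of all probe sets. An unadjusted p under 0.05 with HFD higher was found for 6 of the 8, against 13.6% of all. The members were chosen with earlier results of these data known, so such shares are a description. The HFD arrays were all above the ND arrays at 6 of the 8 (19.4% of all) and all below at 1 (19.7%). When HFD+EV replicate 1 was left out 2 of the 8 passed, IDH3A and the first DLAT probe set (3.49% of all probe sets did). Without ND replicate 2 it was 2, the first DLAT probe set and DLD (6.56% of all). When any other single array was left out 0 passed (0% to 0.0581% of all).

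After EV injection the diet difference was smaller in size for each of the 8, and the difference of the differences is tested below. All 8 were higher in HFD+EV than in ND+EV, with a median of 0.13 against -0.0066 over all probe sets. With limma 0 of the 8 passed, as 0% of all did. DLD was the 1 member with an unadjusted p under 0.05 (4.14% of all higher) and the 1 whose groups did not overlap (7.58% of all higher). The second DLAT probe set turned to -0.18 without HFD+EV replicate 3, -0.034 without HFD+EV replicate 2 and -0.057 without ND+EV replicate 2. Averaged over both injections 7 were higher, with a median of 0.46, and 1 passed (1.17% of all probe sets). An unadjusted p under 0.05 with the high fat diet higher was found for 5 of the 8, against 13.7% of all. The number that passed for this mean was 4 without HFD+EV replicate 1 (6.77% of all) and 3 without ND replicate 2 (6.08% of all). It was 0 when any other single array was left out (0% to 0.00968% of all).

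**Figure D2:**
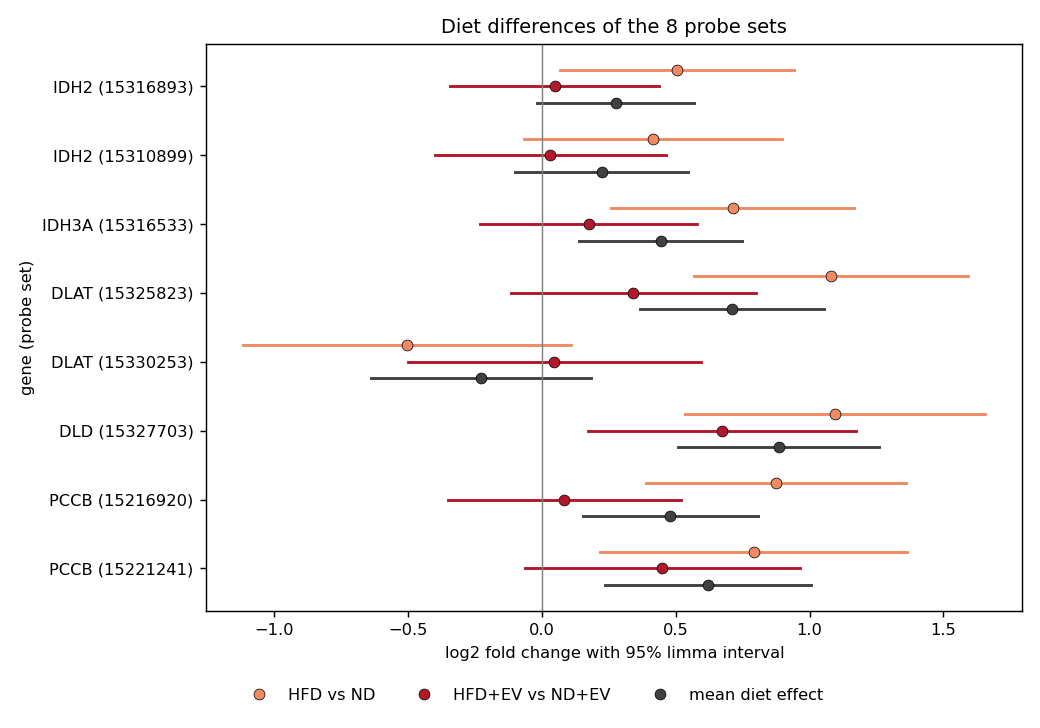
Diet differences of the 8 probe sets (rows) as log2 fold change (x axis) with 95% limma intervals, for HFD against ND, HFD+EV against ND+EV and their mean. The HFD to ND interval lies above 0 for IDH2 (15316893), IDH3A, DLAT (15325823), DLD and both PCCB probe sets, and in HFD+EV against ND+EV only the DLD interval, 0.17 to 1.18, does.

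How far HFD and ND differed moved with the scaling for some members and little for others. DLD was 1.06 under quantile normalization and 1.07 under cyclic loess, close to its 1.10 as deposited, and PCCB was 0.76 and 0.77 on its first probe set and 0.72 under both on its second. IDH3A was 0.53 and 0.52, and the first DLAT probe set 0.74 and 0.73. The second DLAT probe set was -0.51 and -0.49. Without both ND replicates 1 and 3, which leaves 1 ND array whose spread is assumed to be like that of the other groups, DLD was 0.65, DLAT 0.75 and -0.26, IDH3A 0.50, and PCCB 1.10 and 0.46.

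**Figure D3:**
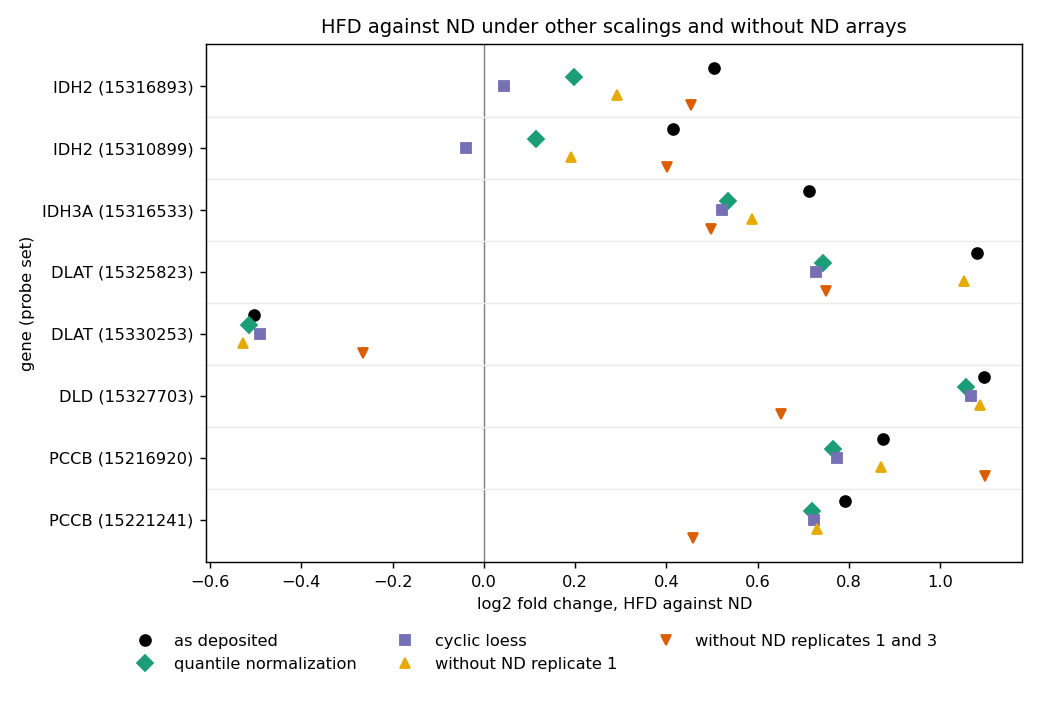
Log2 fold change of HFD against ND (x axis) for the 8 probe sets (rows) from the values as deposited, after quantile normalization, after cyclic loess, without ND replicate 1 and without ND replicates 1 and 3. The IDH2 points move closest to 0 under cyclic loess, at 0.044 and -0.040, while DLD stays at 1.06 or above under both scalings.

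EV injection under the normal diet moved no member past the threshold. In ND+EV against ND 7 of the 8 were higher, with a median log2 difference of 0.35 against -0.0046 over all probe sets. With limma 0 of the 8 passed, as 0% of all did, and the adjusted p-values were 0.548 to 0.744. PCCB on probe set 15216920 had the largest difference, 0.56 ± 0.20 (SE), with a mean of 5.88 ± 0.25 over the ND+EV arrays and 5.32 ± 0.23 over the ND arrays (SD, n = 3 each). It was the 1 member with an unadjusted p under 0.05, against 4.97% of all higher.

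All 3 ND+EV arrays were above all 3 ND arrays for IDH3A, the first DLAT probe set and this PCCB probe set (3 of 8, against 6.32% of all). The second DLAT probe set was lower on all 3 ND+EV arrays (-0.51 ± 0.25, against 5.31% of all lower). IDH3A differed by 0.38 ± 0.18, DLAT by 0.38 ± 0.21, DLD by 0.30 ± 0.23, the second PCCB probe set by 0.28 ± 0.23 and IDH2 by 0.38 ± 0.18 and 0.33 ± 0.20. The IDH2 values were 0.16 and 0.10 without ND replicate 1, and 0.56 and 0.54 without ND replicate 3. DLD was 0.091 without ND replicate 3 and 0.53 without ND replicate 2. Without both ND replicates 1 and 3, DLD was -0.14 and the second PCCB probe set -0.054. The mean score of the 8 probe sets, each taken as its deviation from its own mean over all arrays, was -0.025, -0.087 and -0.058 for ND+EV replicates 1 to 3, against -0.49, -0.20 and -0.26 for ND replicates 1 to 3.

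Under the high fat diet the EV differences were smaller and mostly of the other sign. In HFD+EV against HFD 7 of the 8 were lower, with a median of -0.10 against -0.0023 over all probe sets. With limma 0 of the 8 passed, as 0% of all did (adjusted p 0.915 to 0.995), and 0 had an unadjusted p under 0.05 (5.54% of all). The first DLAT probe set had the largest difference, -0.36 ± 0.23 (SE; 95% interval -0.87 to 0.16), and its 3 HFD+EV arrays were all below both HFD arrays (11% of all lower). It was -0.11 without HFD+EV replicate 1.

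The other intervals in HFD+EV against HFD also spanned 0: -0.61 to 0.29 for IDH3A, -0.68 to 0.44 for DLD, -0.72 to 0.25 and -0.64 to 0.51 for PCCB, -0.52 to 0.35 and -0.54 to 0.42 for IDH2, and -0.57 to 0.65 for the second DLAT probe set. These data thus leave room for differences in either direction. The sign turned without HFD+EV replicate 1 for IDH3A (0.059), IDH2 on 15310899 (0.011) and PCCB on 15221241 (0.16, and 0.20 without HFD replicate 1). DLD turned to 0.14 without HFD replicate 2. The second DLAT probe set turned to -0.19 without HFD+EV replicate 3, and to -0.041 without HFD+EV replicate 2 or HFD replicate 2. Member scores were -0.14, 0.29 and 0.37 on HFD+EV replicates 1, 2 and 3 and 0.35 and 0.26 on HFD replicates 1 and 2, so that HFD+EV replicate 1 alone was low.

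Whether EV acted differently under the 2 diets was tested by taking the ND+EV to ND difference off the HFD+EV to HFD one, which equals the difference between the diet effects. PCCB on 15216920 differed by -0.79 ± 0.30 (SE; 95% interval -1.44 to -0.14) and the first DLAT probe set by -0.74 ± 0.31 (-1.43 to -0.052). They were 2 of 8 with an unadjusted p under 0.05, against 4.55% of all probe sets on the lower side. With limma 0 of the 8 passed, as 0% of all did, and the adjusted p-values were 0.572 to 0.788. The other values were -0.54 for IDH3A, -0.46 and -0.38 for IDH2, -0.42 for DLD, -0.34 for the second PCCB probe set and 0.55 for the second DLAT probe set. The ND arrays enter both this difference and the HFD to ND one. With HFD+EV replicate 1 and ND replicates 1 and 3 all left out, PCCB on 15216920 was more negative than with all arrays. The first DLAT probe set was then at -0.17. For the EV effect averaged over both diets, limma passed 0 of the 8 (0% of all), with 0 at an unadjusted p under 0.05 (5.42% of all) and adjusted p-values from 0.959 to 0.993.

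**Figure D4:**
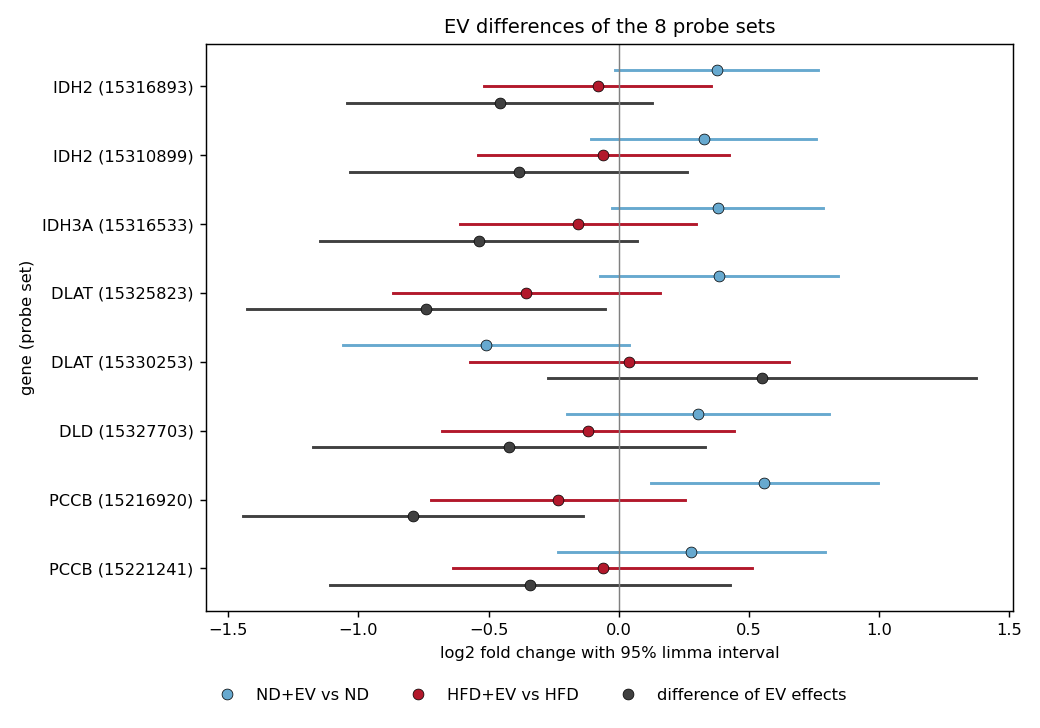
EV differences of the 8 probe sets (rows) as log2 fold change (x axis) with 95% limma intervals, for ND+EV against ND, HFD+EV against HFD and the difference of these effects. Only PCCB (15216920) in ND+EV against ND lies wholly above 0, and only PCCB (15216920) and DLAT (15325823) lie wholly below 0 for the difference of the effects.

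The members lay within a wider set of genes of the same pathways that were higher in HFD than in ND. Members and lists were chosen with earlier results of these data known, so the shares below are a description, not independent support. Of 31 listed genes of pyruvate dehydrogenase and the TCA cycle, 20 were tested, with every member but PCCB among them. All 20 were higher, with a median log2 difference of 0.62. DLAT counted by its brighter probe set, while its other one was lower. Of 28 listed symbols of branched-chain amino acid and propionate breakdown 18 were tested and 16 were higher (median 0.70). Over all 9738 genes 54.5% were higher, with a median of 0.038. With limma 0 genes of either list passed. An unadjusted p under 0.05 with HFD higher was found for 14 of 20 and 12 of 18 genes, against 16.6% of all genes. Without the members the medians were 0.59 over 16 genes, all higher, and 0.68 over 16 genes, 14 of them higher. Both medians were smaller under quantile normalization (0.35 and 0.50) and cyclic loess (0.32 and 0.48). In the first list 18 of 20 genes were higher under each of these scalings. There 19 of 20 were higher without HFD replicate 1, HFD replicate 2 or ND replicate 2.

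PDHX, the component that holds DLD to the DLAT core, was the non-member with the smallest p in the first list. Its log2 signal averaged 7.73 ± 0.049 on the HFD arrays (SD, n = 2), against 7.17 ± 0.049 for ND (n = 3), and 7.60 ± 0.19 in HFD+EV and 7.12 ± 0.043 in ND+EV (n = 3 each). PDHX and DLD were the 2 genes of this list to pass for the mean diet difference, and DLD the 1 of the second. PDHX rose by 0.52 ± 0.088 (SE; limma adjusted p = 0.0461). Its call ended without each of the same 9 arrays as that of DLD (0.0525 to 0.182, the highest without HFD replicate 2), with no filter (0.0541), with a variance trend (0.0621), under quantile normalization (0.31, adjusted p = 0.0910) and under cyclic loess (0.31, 0.0820).

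Next in the first list in HFD against ND were PDK3, a kinase that inhibits pyruvate dehydrogenase (0.87 ± 0.23, SE; limma adjusted p = 0.0750), and SUCLA2, a subunit of succinyl-CoA synthetase (0.58 ± 0.16; adjusted p = 0.0807). In the second list the non-members AUH, ACADSB and HSD17B10 had the smallest p, with differences of 0.83 ± 0.19, 0.74 ± 0.19 and 1.31 ± 0.36. Their limma adjusted p-values were 0.0612, 0.0698 and 0.0778. AUH is a hydratase of leucine breakdown, ACADSB an acyl-CoA dehydrogenase of isoleucine breakdown, and HSD17B10 acts later on the isoleucine route. Both HFD arrays were above all 3 ND arrays for each of these 5 genes. For the mean diet difference the smallest p of the non-members after PDHX belonged to PDK3 (0.72), SUCLA2 (0.48), HIBADH of valine breakdown (0.55), ACADSB (0.49) and AUH (0.47), which did not pass. PCCA, the partner subunit of PCCB, differed by 0.22 ± 0.21 between HFD and ND (limma adjusted p = 0.554) and by 0.35 ± 0.19 between HFD+EV and ND+EV (adjusted p = 0.719), with overlapping arrays in both.

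In HFD+EV against ND+EV 18 of 20 and 14 of 18 genes of the lists were higher, with medians of 0.17 and 0.15 (0.021 over all genes) and 0 passed. The first median was 0.37 without HFD+EV replicate 1, 0.093 without HFD+EV replicate 2 and 0.11 without HFD+EV replicate 3. Of the non-members, the smallest p in this comparison belonged to PDHX (0.48), PDK3 (0.57) and SUCLA2 (0.38) in the first list. In the second it belonged to HIBADH (0.39), PCCA and ACADSB (0.24). In ND+EV against ND the medians were 0.25 (17 of 20 higher) and 0.32 (16 of 18), 0 passed, and the non-members with the smallest p were DLST of oxoglutarate dehydrogenase (0.42), CS, citrate synthase (0.57), MPC2 of the pyruvate carrier (0.46), AUH (0.52), ACADSB (0.46) and DBT, the core of the branched-chain keto acid dehydrogenase (0.34). Without both ND replicates 1 and 3 these medians were 0.076 and 0.12, and CS was -0.028.

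In HFD+EV against HFD 19 of 20 and 12 of 18 genes were lower (medians -0.16 and -0.15), and 0 passed. Without HFD+EV replicate 1 the medians were -0.023 and -0.095, with 8 of 20 and 8 of 18 genes higher. Of the non-members, SDHD of succinate dehydrogenase (-0.35) and the kinases PDK3 (-0.33) and PDK1 (-0.32) had the smallest p in the first list. In the second these were the kinase BCKDK (-0.72), the cobalamin enzyme MMAB (-0.36) and the hydratase ECHS1 (-0.66). For the difference of the EV effects the medians were -0.44 (19 of 20 lower) and -0.49 (16 of 18 lower), and 0 passed. SDHD (-0.61), PDHB (-0.70), DLST (-0.57), AUH (-0.71), ECHS1 (-1.05) and ACADSB (-0.51) had the smallest p of the non-members there. Leaving out HFD+EV replicate 1 with ND replicates 1 and 3 gave medians of -0.073 and -0.12.

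**Figure D5:**
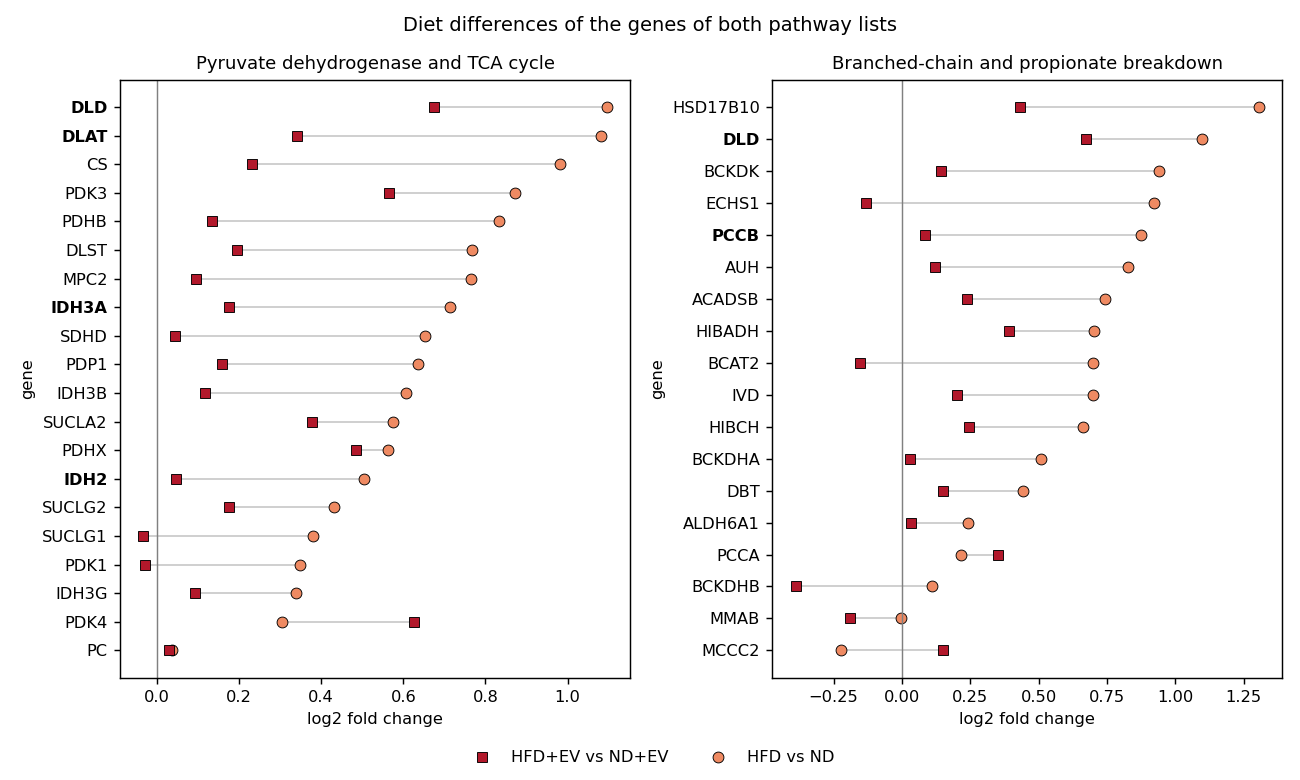
Log2 fold change (x axis) of each tested gene (rows, members in bold) of the 2 pathway lists for HFD+EV against ND+EV (squares) and HFD against ND (circles). All 20 circles of the pyruvate dehydrogenase and TCA cycle panel lie above 0, DLD and DLAT have its largest HFD to ND differences, and PDHX is among the genes whose 2 points lie close together.

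The genes whose profile over the 11 arrays was most like that of each member are given as a description. They are the 3 highest Pearson correlations among 10416 or 10417 tested probe sets with 1 symbol, so high values are built into the choice, and all share the arrays and their scaling. DLD was most like CD47 (r = 0.973), MED1 (0.972) and ACTR3 (0.966), with Spearman's rho of 0.982 for each, and these r were 0.947 to 0.968 without ND replicate 3 and HFD replicate 2, the arrays farthest from its median. IDH3A was most like the complex I subunit genes NDUFB11 (r = 0.984, rho = 0.982) and NDUFB5 (0.977, 0.982) and the peptidase gene PREP (0.981, 0.908), at 0.961 to 0.981 without ND replicate 1 and HFD+EV replicate 2. The first DLAT probe set was most like BMPR2 (r = 0.971), CCT2 (0.968) and DGCR2 (0.963), with rho from 0.836 to 0.900, and r of 0.943 to 0.971 without HFD replicate 1 and ND replicate 3.

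PCCB on 15216920 was most like R3HDM1 (r = 0.947), FHL2 (0.916) and SLC35A5 (0.908), with rho of 0.900, 0.893 and 0.815, and r of 0.835 to 0.872 without ND replicates 1 and 2. IDH2 on 15316893 was most like LOC733637 (r = 0.972), GABARAP (0.962) and LAMTOR5 (0.961), with rho of 0.943, 0.809 and 0.855. Without ND replicates 1 and 2 these were 0.8005, 0.577 and 0.722, so that the likeness for IDH2 rested more on those arrays than that for DLD or IDH3A.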

How the data were processed

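The deposited table holds log2 signal, normalized by the authors, for the probe sets of 11 Affymetrix whole-transcript arrays, hybridised from 50 ng of total RNA per the labels' protocols. Per the submitters' processing notes the tool was Transcriptome Analysis Console (version not stated). How probes were summarised, the annotation version and the genome build were not given in the sources used here. No coordinates are printed. Probe sets were named from the platform annotation (13157 with 1 symbol, 523 with several, 13878 with none), with symbols updated by gene ID (12841 matched, 7 changed).

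Probe sets in the lowest 25% by mean signal (under 3.63) were dropped, and 1 mean per group was fitted over all 11 arrays with limma 3.58.1 in R 4.3.3 (lmFit, eBayes, two-sided, 7 residual and 3.62 prior degrees of freedom) for 7 contrasts, after a check on simulated data. A gene in a list stands for its brightest tested probe set. The number of arrays limits precision. Members, lists and tests were chosen with earlier results of these data known. Named non-members are the 3 with the smallest p in each list and contrast, plus any that passed. The labels name no batch. Alternatives were other filters, scalings, variance models and weights, a replicate block, and arrays left out.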

Additional observations from a re-analysis of the deposited data

How the results depend on the processing

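Of the 8 probe sets, those past the threshold numbered 0 in HFD against ND and 0 to 2 when 1 array was left out (0% to 6.56% of all probe sets). For the mean diet difference the main number was 1, and 0 to 4 when 1 array was left out (0% to 6.77% of all). It was 0 with no filter, under quantile normalization, under cyclic loess, with a variance trend, and without both ND replicates 1 and 3, 2 with a stricter filter on dim signal (3.36% of all) and 5 with array weights (which call 8.06% of all probe sets). In the other 5 comparisons the number was 0 under all settings run. Same-numbered arrays deviated together only in part: 13 of 15 pairs had r above 0 and 5 of 15 over 0.1 (-0.10 to 0.33), against 10 of 30 and 5 of 30 differently numbered pairs (-0.34 to 0.19), and 7 of 11 arrays correlated best with one of their own number. The deviations were taken from group means and sum to 0 within a group, so the 2 sets of pairs are not independent. The main fit did not use the replicate numbers, since the labels name no batch or pairing. Whether same-numbered arrays share a source was not tested. With the replicate block, DLAT and DLD passed in HFD against ND (2) and for the mean diet difference (2), with 938 (4.54%) and 985 (4.77%) probe sets called in all, against 152 and 242 with no block.

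Signs that turned were mostly those of differences near 0, and the cause was not tested. Larger main differences also turned. Among them were IDH2 on 15310899 in HFD against ND (0.42) and DLD in ND+EV against ND (0.30). For the difference of the EV effects they were DLD (-0.42) and PCCB on 15221241 (-0.34). Under cyclic loess IDH2 was -0.040 on 15310899 in HFD against ND and -0.042 for the mean diet difference. It was also -0.023 (15316893) and -0.044 (15310899) for HFD+EV against ND+EV, with 0.028 and 0.051 for HFD+EV against HFD. Under quantile normalization it was -0.0056 (15310899) for HFD+EV against ND+EV, with 0.028 and 0.036 for HFD+EV against HFD. In HFD+EV against HFD, PCCB on 15221241 was 0.065 with array weights and DLAT on 15330253 -0.11 with the replicate block.

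Without both ND replicates 1 and 3, in ND+EV against ND, DLD was -0.14, PCCB (15221241) -0.054 and CS -0.028, and the difference of the EV effects was 0.022 for DLD. Without HFD+EV replicate 1 as well, DLAT (15330253) was 0.045 for the mean diet difference, and the difference of the EV effects was 0.054 for DLD and 0.21 for PCCB (15221241). In HFD+EV against HFD it left IDH2 (15310899) at 0.011, IDH3A at 0.059 and PCCB (15221241) at 0.16.

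With 1 array left out, HFD+EV against ND+EV ranged from -0.029 to 0.11 for IDH2 (15310899), -0.18 to 0.35 for DLAT (15330253) and -0.069 to 0.21 for PCCB (15216920). HFD+EV against HFD ranged from -0.11 to 0.011 for IDH2 (15310899), -0.29 to 0.059 for IDH3A, -0.19 to 0.35 for DLAT (15330253), -0.38 to 0.14 for DLD and -0.33 to 0.20 for PCCB (15221241). ND+EV against ND ranged from 0.091 to 0.53 for DLD, 0.16 to 0.44 for PCCB (15221241) and 0.19 to 0.87 for CS. The mean diet difference of DLAT (15330253) ranged from -0.34 to -0.075. The difference of the EV effects ranged from -0.68 to -0.17 for DLD and -0.60 to -0.078 for PCCB (15221241).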

Other observations

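Exactly equal values on different arrays were common in the deposited table. At least 2 arrays shared a value at 46.7% of the 27558 probe sets and at least 3 arrays at 25.3%, and all 3 ND+EV arrays were equal at 255 probe sets (0.925%). IDH3A was the 1 of the 8 member probe sets with such a tie, and its ND+EV group is one of those 255.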
